A study of Homo sapiens with 24 samples.

Results

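The genes described are 10 imprinted genes: NAP1L5, PLAGL1, PEG10, PEG3, MEST, DLK1, MEG3, H19, PHLDA2 and GRB10. They were chosen by name, with earlier results of these data known. Their probe sets were those whose only gene symbol in the array's probe gene table is one of these names. The rule found 29 probe sets of 9 genes among 41091 probe sets with a single symbol, out of 54675 on the array, and 26 of the 29 passed the filter on low values. The 3 that did not pass were 1 of 2 for PEG3 and 2 of 10 for MEG3. H19 has 2 probe sets that carry a second symbol, so it has no value here, and 1 further PEG3 probe set shared with another gene was left out for the same reason.

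Imprinted genes are expressed mainly from the copy inherited from one parent. The silent and the active copy are told apart by DNA methylation laid down in the germ line over control regions rich in CpG, and maintenance methylation by DNMT1 carries that difference through cell division. Many imprinted genes set fetal and placental growth, and tumour cells often lose or gain methylation at their control regions.

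HCT116, an established human colorectal cancer cell line, was treated for 72 h, and RNA was read on Affymetrix HG-U133 Plus 2.0 arrays. The solvent control, DMSO, had 4 arrays, and each of 10 treated groups had 2. The cytidine analogues decitabine (DAC) and azacytidine (Aza) enter nucleic acid and trap DNA methyltransferases. The study set them beside prodrugs known here by code only. The doses were 5 µM and 120 nM for DAC, 7 µM and 150 nM for G668684 (marked ester in the titles), and 1500 nM and 150 nM both for Aza and for G669043. For G669071 (marked phos) the titles state 63 µM and 6 µM but the source names 120 nM and 6 nM, so they are told apart only as its higher and its lower dose. The titles of G669043 carry the prefix Aza, and its relation to that drug is not settled here. Every group, DMSO included, was the same cell line, and nothing in the labels says that arrays of a group came from separate cultures. The p-values therefore measure only the spread between these arrays, which may be technical, and 2 arrays per treated group limit the precision.

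Levels are log2 of the deposited RMA values, and a difference of 1 is a doubling. A probe set's level cannot be set against another's, so levels are compared between groups only. Detection calls were not used here. Among genes silent in epithelium, CD3E read 7.85 to 8.27 and HBB 8.67 to 8.95, while PTPRC read 4.22 to 4.58, so a level alone does not show that a gene is expressed. All 10 epithelial markers lay at 5 or more on all arrays, from 6.52 to 14.25. So did all 5 neuron markers, 4 of 5 placenta markers, 4 of 6 fibroblast markers and 3 of 4 blood markers with a probe set. That cut therefore does not tell cell types apart. The DMSO arrays formed 2 pairs, replicates 1 and 2 against 3 and 4, with r = 0.996 within each pair and 0.988 to 0.990 between pairs across the probe sets tested. The pairs differed by a median of 0.16 in size over the probe sets tested, and the 3′ minus 5′ signal of ACTB, a measure of RNA integrity, was −0.03 and 0.00 in the first pair and 0.24 and 0.15 in the second. As a check of the treatment, TKTL1 (214183_s_at), a transketolase-like gene, was 7.01 to 7.70 higher than DMSO in the 6 groups of DAC, G669071 and G668684, 5.74 higher with Aza at 1500 nM and 6.15 higher with G669043 at 1500 nM. It was 1.69 higher with Aza at 150 nM and 0.12 higher, not called, with G669043 at 150 nM. The other TKTL1 probe set, 216370_s_at, was called in the same groups except Aza at 150 nM (0.39 higher, adjusted p = 0.38, limma). DNMT1 was called lower with DAC at 5 µM (−0.63), G668684 at 7 µM (−0.60) and the higher dose of G669071 (−0.33). DNMT1 was called in no other treated group.

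The sequences just before the start sites were read for the genes whose promoters RefSeq gives (GRCh38.p14), because CpG density bears on whether a start can be methylated. NAP1L5, PLAGL1, MEST, MEG3, GRB10 and H19 matched, with 20 windows of 250 bases in all, and PEG3, PEG10, DLK1 and PHLDA2 did not. The motif counted was CG, which reads the same on both strands and cannot overlap itself. The median over 35116 such windows of 27305 genes was 11. Given in full are the single NAP1L5 window and the 2 PLAGL1 windows that hold most of that gene's CpG, since these genes had the largest differences from DMSO, with each CpG in capitals and all lying on the minus strand.
NAP1L5, chr4:88697830-88698079: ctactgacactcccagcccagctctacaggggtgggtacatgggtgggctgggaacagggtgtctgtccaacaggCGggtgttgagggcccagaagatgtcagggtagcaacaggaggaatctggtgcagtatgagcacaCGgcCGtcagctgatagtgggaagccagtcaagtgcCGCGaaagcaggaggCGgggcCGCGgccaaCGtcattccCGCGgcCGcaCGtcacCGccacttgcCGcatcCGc
PLAGL1, chr6:144008260-144008509: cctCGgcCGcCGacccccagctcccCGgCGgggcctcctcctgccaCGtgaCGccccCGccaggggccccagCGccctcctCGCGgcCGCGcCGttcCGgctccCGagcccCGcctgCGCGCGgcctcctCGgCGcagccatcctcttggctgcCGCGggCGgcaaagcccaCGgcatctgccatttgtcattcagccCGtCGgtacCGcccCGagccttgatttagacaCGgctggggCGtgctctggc
PLAGL1, chr6:144064600-144064849: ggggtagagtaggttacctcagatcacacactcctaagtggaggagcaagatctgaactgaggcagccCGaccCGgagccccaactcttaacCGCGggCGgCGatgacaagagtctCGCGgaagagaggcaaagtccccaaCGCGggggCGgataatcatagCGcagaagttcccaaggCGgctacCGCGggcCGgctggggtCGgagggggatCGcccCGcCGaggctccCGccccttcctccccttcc
The NAP1L5 window holds 16 CpG, a number that 41.0% of all windows reach, and 13 of them lie in the 100 bases nearest the start. The PLAGL1 windows hold 32 and 21, reached by 9.52% and 30.2% of windows, while the other 3 PLAGL1 windows hold 1 to 3. GRB10 ranges from 2 to 40 over 5 windows, MEST from 9 to 20 over 5 and MEG3 from 11 to 13 over 3, and the H19 window holds 4. No methylation was measured, and the counts describe sequence only.

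Across the 26 probe sets the imprinted genes did not move as a block. NAP1L5, PEG10 and PLAGL1 rose, DLK1 and GRB10 rose on some of their probe sets, and MEG3, MEST and PEG3 lay close to their DMSO levels. With DAC at 5 µM 10 of the 26 probe sets rose (38.5%, against 15.1% of all 35146 probe sets tested) and 3 fell (11.5%, against 13.1%), and the median difference was 0.11 for the imprinted genes and −0.05 for all. DAC at 120 nM raised 9 (34.6%, against 10.5%) and lowered 1 (3.85%, against 9.4%).

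G669071 raised 11 at its higher dose (42.3%, against 13.6% of all) and 5 at its lower dose (19.2%, against 6.78%), and limma called none lower, against 12.5% and 5.69% of all probe sets. G668684 raised 10 and lowered 1 at 7 µM, where 14.8% and 13.3% of all probe sets rose and fell, and raised 7 and lowered 1 at 150 nM, where 8.89% and 9.49% did. In these 6 groups the share called higher lay above that of all probe sets and the share called lower below it. These differences of shares were not tested, and probe sets of 1 gene are not independent. The genes were also chosen with earlier results of these data known, so the shares are not independent of that choice.

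Aza at 1500 nM had 5 calls, as many as the lower dose of G669071, and the other groups of Aza and G669043 had fewer. At 1500 nM Aza raised 3 (11.5%, against 6.09% of all probe sets) and lowered 2 (7.69%, against 8.21%). At 150 nM it raised 1 (3.85%, against 0.666%) and lowered none, against 0.282%. G669043 at 1500 nM raised 2 (7.69%, against 4.24%) and lowered none, against 2.74%. For both Aza doses and G669043 at 1500 nM, the share called higher thus also lay above that of all probe sets. The share called lower lay below that of all, by little with Aza at 1500 nM. These differences too were not tested. At 150 nM limma called none of the 26 with G669043, where 0.222% of all rose and 0.0341% fell, and 2 had an unadjusted p under 0.05. All 10 comparisons share the 4 DMSO arrays, so they are not independent of each other. In RNA from bulk cultures, more RNA per cell and more cells that hold the RNA cannot be told apart.

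**Figure D1:**
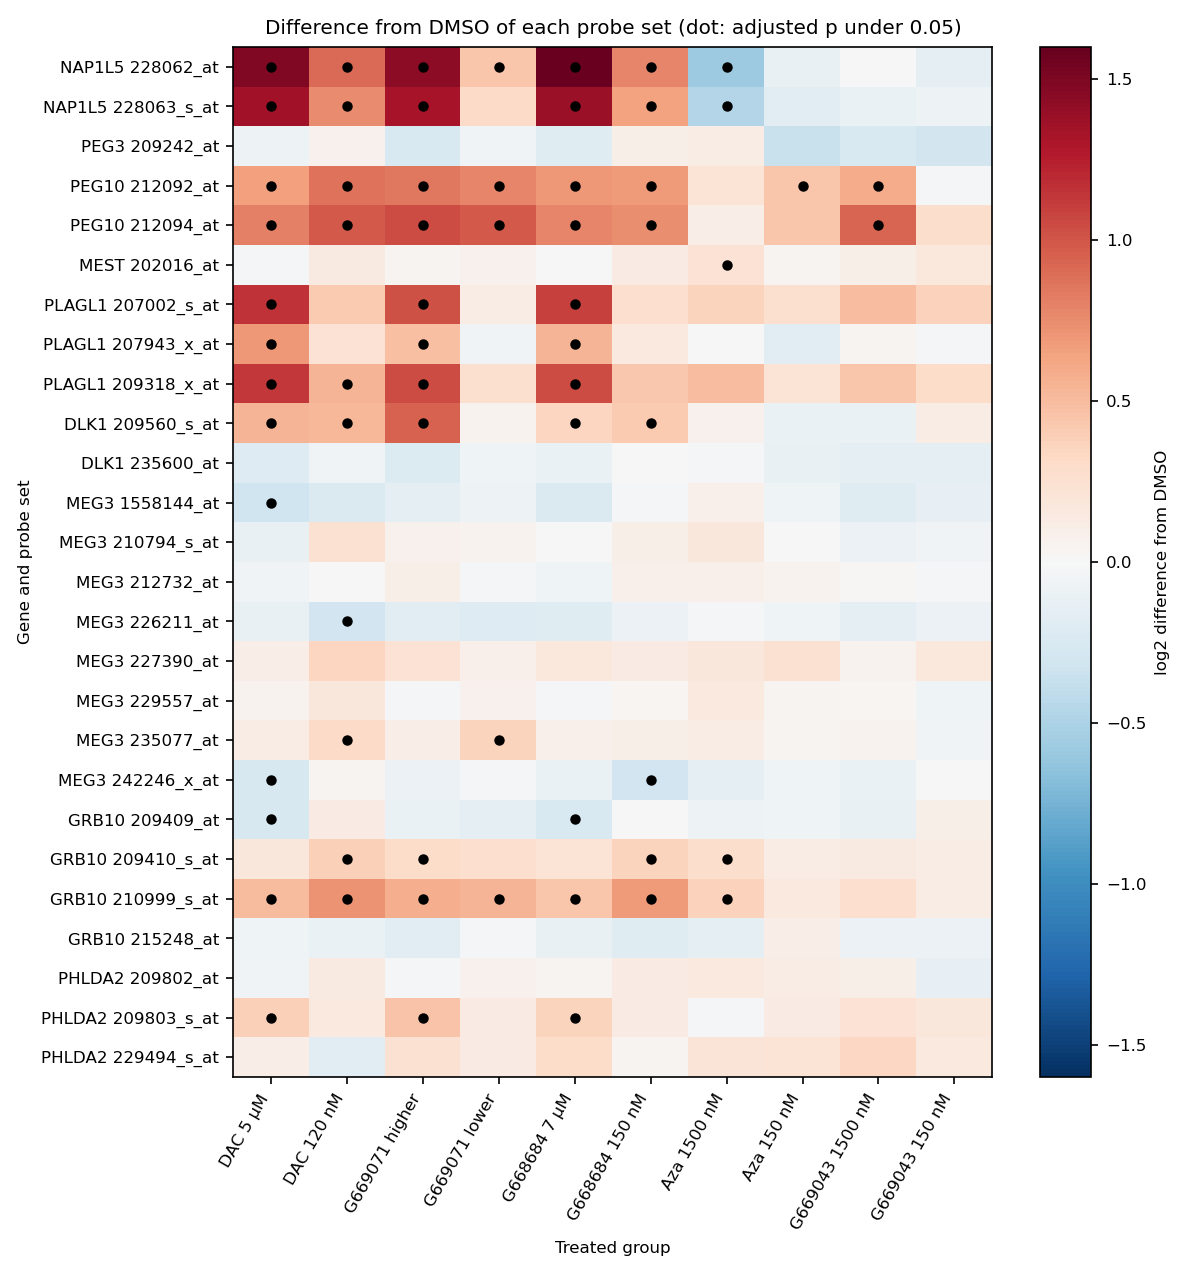
Difference from DMSO on the log2 scale (colour) for each of the 26 probe sets that passed the filter (rows) in each treated group (columns); a dot marks an adjusted p under 0.05. The rows of NAP1L5 and PEG10 are red across the groups of DAC, G669071 and G668684, from 0.30 up to 1.58. They are palest for NAP1L5 with the lower dose of G669071, and both NAP1L5 rows are blue with Aza at 1500 nM.

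NAP1L5 encodes a member of the nucleosome assembly protein family, histone-binding proteins, and is a paternally expressed retrogene without introns that lies inside HERC3. On probe set 228062_at the 4 DMSO arrays read 7.39, 7.27, 7.80 and 7.72. The arrays of DAC read 8.97 and 9.09 at 5 µM and 8.40 and 8.49 at 120 nM. All 4 lay above every DMSO array, and the higher dose above the lower.

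For the same probe set, G669071 read 8.97 and 8.98 at the higher dose and 8.02 and 7.96 at the lower. G668684 read 8.98 and 9.27 at 7 µM and 8.31 and 8.35 at 150 nM. Each of these groups again lay above all DMSO arrays. Aza read 7.02 and 6.90 at 1500 nM, below every other array of the series, and 7.46 and 7.40 at 150 nM, within the DMSO range. G669043 read 7.48 and 7.61 at 1500 nM and 7.51 and 7.27 at 150 nM, also within it.

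The largest rise of NAP1L5 was with G668684 at 7 µM, 1.58 ± 0.12 (SE), or 2.99-fold (adjusted p = 3.5e-09, limma). DAC at 5 µM gave 1.49 (8.4e-09) and the higher dose of G669071 1.43 (1.6e-08), and in that order each group's arrays overlapped the next. At the lower doses the rise was 0.90 with DAC (1.5e-05), 0.79 with G668684 (8.3e-05) and 0.45 with G669071 (0.017). The last was 0.23, with an adjusted p of 0.10, against DMSO replicates 3 and 4 alone. Its call was also lost when either treated array was left out and in the fit of only the groups compared.

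Aza at 1500 nM moved NAP1L5 the other way. It fell by 0.58, or 1.5-fold, on 228062_at (adjusted p = 0.0021, limma) and by 0.46 on 228063_s_at (0.0052). With the first DMSO pair as the only control it fell by 0.37 (0.019), and with the second pair by 0.80 (1.3e-05). Without Aza replicate 2 the adjusted p was 0.055, and in the fit of only the groups compared it was 0.051. On 228063_s_at the call was lost with the first DMSO pair as the only control (a fall of 0.30 with adjusted p = 0.050), without Aza replicate 2 (0.17) and in the fit of only the groups compared (0.089). The second probe set comes from the same accession as the first. It gave the same order of the DAC, G669071 and G668684 groups, again with Aza at 1500 nM lowest. The order of the groups between these differed. Its rises were 1.34, 1.32 and 1.38 at the higher doses of DAC, G669071 and G668684. At their lower doses it gave 0.76, 0.30 (not called) and 0.65.

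Dose separated NAP1L5 in the 3 compounds that raised it. On 228062_at the higher minus the lower dose was 0.58 for DAC (95% interval 0.29 to 0.88, adjusted p = 0.0080), 0.98 for G669071 (0.69 to 1.28, 1.3e-04) and 0.80 for G668684 (0.50 to 1.09, 8.5e-04). For Aza it was −0.47 (−0.76 to −0.18), which did not pass (0.063). The DAC value lost its call without DAC 5 µM replicate 2 (0.093) or DAC 120 nM replicate 1 (0.072). Among all genes, 11.4%, 6.5% and 8.52% of probe sets were called between the doses of DAC, G669071 and G668684, 4.27% between those of Aza and 2.7% between those of G669043. Among the imprinted genes these comparisons called 4, 6, 2, 0 and 2 probe sets with limma, and 5 had an unadjusted p under 0.05 where Aza had none called.

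**Figure D2:**
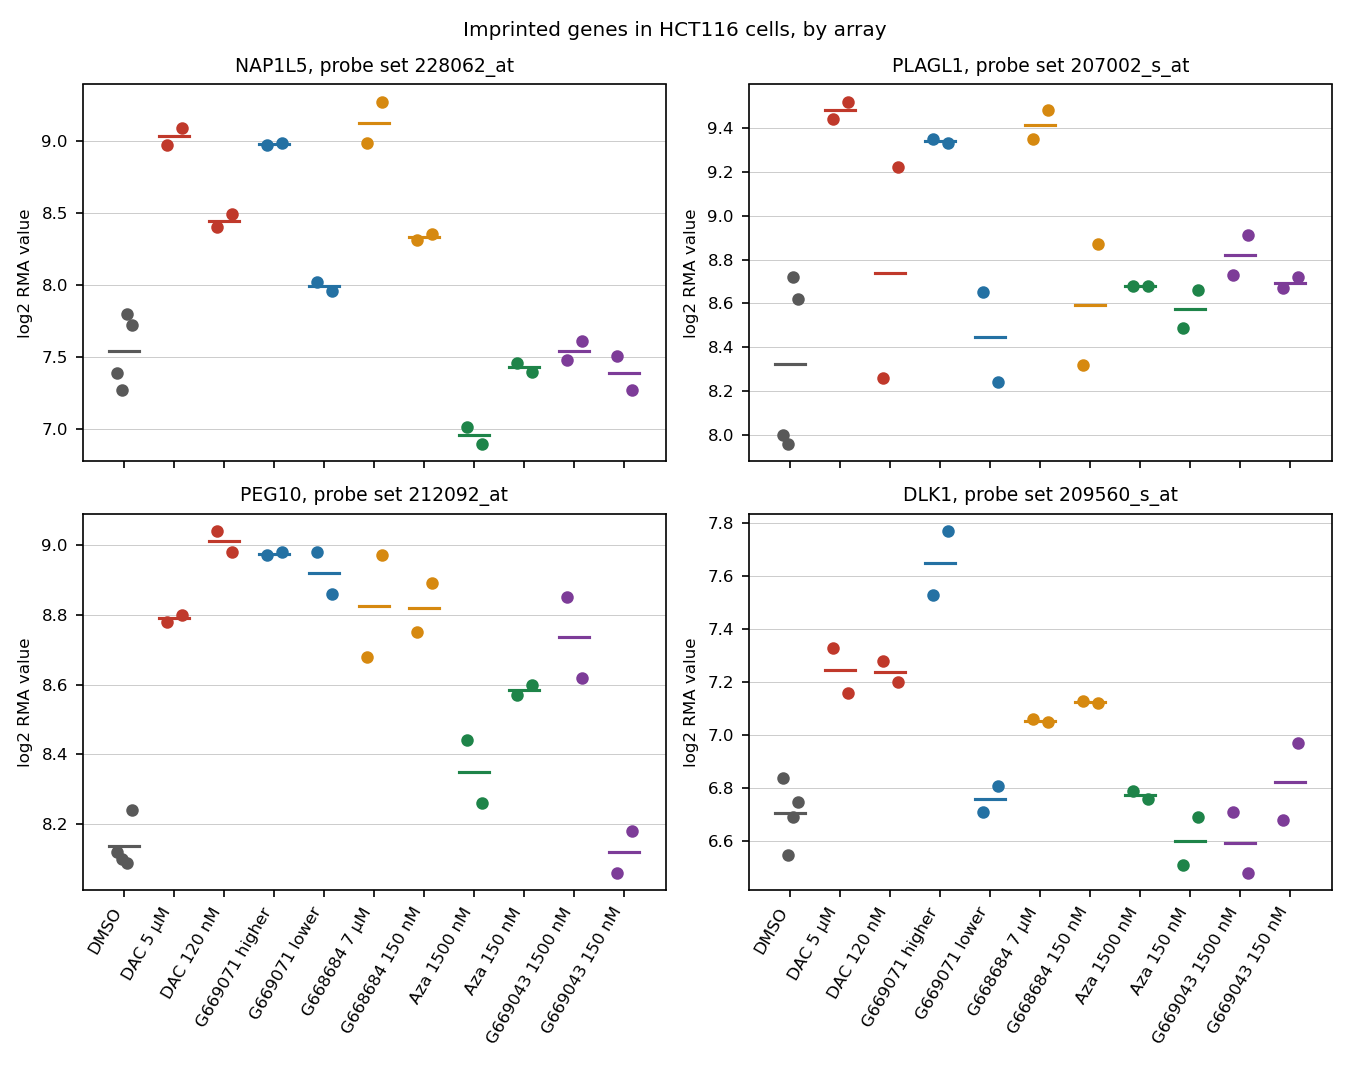
Log2 RMA value (vertical axes, each with its own range) on each array (points) and the group mean (line) for 1 probe set each of NAP1L5, PLAGL1, PEG10 and DLK1 in the 11 groups. NAP1L5 and PLAGL1 are highest at the higher doses of DAC, G669071 and G668684, PEG10 is as high at their lower doses, and DLK1 is highest, at 7.53 and 7.77, with the higher dose of G669071.

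PLAGL1, a paternally expressed zinc finger transcription factor that can arrest the cell cycle, rose on all 3 of its probe sets at the higher doses of DAC, G669071 and G668684. On 207002_s_at the DMSO arrays read 8.0, 7.96, 8.72 and 8.62, a gap of 0.69 between the pairs that is wider than for any other probe set of these genes. At the higher doses the arrays read 9.44 and 9.52 with DAC, 9.35 and 9.33 with G669071 and 9.35 and 9.48 with G668684. All 6 lay above all DMSO arrays.

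Both lower-dose arrays of DAC disagreed, at 8.26 and 9.22. Those of G668684 read 8.32 and 8.87 and those of G669071 8.65 and 8.24, in each case within or across the DMSO range. The 4 Aza arrays, at 8.68, 8.68, 8.49 and 8.66, and the 4 of G669043, at 8.73, 8.91, 8.67 and 8.72, lay near the upper DMSO pair. PLAGL1 was not called with either compound.

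The rise of PLAGL1 on 207002_s_at was 1.16 ± 0.22 with DAC at 5 µM (adjusted p = 4.1e-04, limma), 1.01 with the higher dose of G669071 (0.0015) and 1.09 with G668684 at 7 µM (7.2e-04). With DMSO replicates 3 and 4 as the only controls these became 0.81, 0.67 and 0.75, and with the first DMSO pair 1.5, 1.36 and 1.44. All passed the test either way, with adjusted p of 0.0061, 0.022 and 0.011 in the first case. The probe sets 209318_x_at (1.13, 1.04 and 1.04) and 207943_x_at (0.70, 0.49 and 0.55) moved alike, and their suffix marks probes that can match other transcripts. The G669071 value of 207943_x_at was 0.27 and not called against DMSO replicates 3 and 4 alone (0.10). It also lost its call without either treated array (0.068 and 0.090) and in the fit of only the groups compared (0.072). The G668684 value of the same probe set lost it without G668684 7 µM replicate 1 (0.11) and in that fit (0.056).

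Of the lower doses, only DAC at 120 nM had a PLAGL1 call, on 209318_x_at (0.54, adjusted p = 0.027). The call was lost without DAC 120 nM replicate 2 (0.33), without DMSO replicate 1 or 2 (0.069 for each) and in the fit of only the groups compared (0.17). Against DMSO replicates 3 and 4 alone the difference was 0.27 (0.22), and after median centring of the arrays it was 0.53 (0.054). The higher minus the lower dose passed for G669071 alone, with 0.90, 0.54 and 0.79 on the 3 probe sets (0.041, 0.046 and 0.017). Every one of these lost its call when any of the 4 arrays compared was left out, with adjusted p from 0.068 to 0.38. For DAC and G668684 the difference on 207002_s_at was 0.74 (95% interval 0.20 to 1.28) and 0.82 (0.28 to 1.36), neither past the test.

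PEG10, a paternally expressed gene derived from a retrotransposon and needed for the placenta, rose in every group of DAC, G669071 and G668684. On 212092_at the DMSO arrays lay close together, at 8.12, 8.10, 8.09 and 8.24. DAC read 8.78 and 8.80 at 5 µM and 9.04 and 8.98 at 120 nM. G669071 read 8.97 and 8.98 at the higher dose and 8.98 and 8.86 at the lower, and G668684 read 8.68 and 8.97 at 7 µM and 8.75 and 8.89 at 150 nM. All 12 arrays lay above DMSO. The arrays of the doses overlapped for G669071 and for G668684, while both DAC arrays at 5 µM lay below both at 120 nM.

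Its rise ranged from 0.65 ± 0.09 (DAC at 5 µM, adjusted p = 7.9e-06, limma) to 0.87 (DAC at 120 nM, 4.5e-07). On 212094_at, where the DMSO pairs differed by 0.50, it ranged from 0.74 (G668684 at 150 nM, 0.0012) to 1.04 (G669071 at the higher dose, 1.8e-05). The higher minus the lower dose of 212092_at was −0.22 with DAC (95% interval −0.43 to −0.01), 0.06 with G669071 (−0.16 to 0.27) and 0.00 with G668684 (−0.21 to 0.22), none past the test. NAP1L5 and PEG10 thus differed in how their values lay across doses. That contrast between genes was described and not tested.

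With Aza, PEG10 on 212092_at read 8.44 and 8.26 at 1500 nM and 8.57 and 8.60 at 150 nM. The lower dose was the one called, 0.45 above DMSO (adjusted p = 0.014, limma). The call was lost without either of its arrays and in the fit of only the groups compared. With G669043 the arrays read 8.85 and 8.62 at 1500 nM and 8.06 and 8.18 at 150 nM, so only the higher dose lay above DMSO. The rise at 1500 nM was 0.60 on 212092_at (2.0e-04) and 0.94 on 212094_at (4.3e-04). Replicate 2 of that group had the highest 3′ minus 5′ signal of ACTB, 0.34, and replicate 1 had 0.07. In replicate 2 PEG10 was lower than in replicate 1 on 212092_at and higher, at 10.23 against 9.93, on 212094_at. The part of RNA integrity in these values was not tested. Between the doses of G669043 the difference was 0.62 on 212092_at (0.0016) and 0.65 on 212094_at. The second was lost without any 1 of the 4 arrays (adjusted p from 0.068 to 0.36), after median centring of the arrays (0.10) and with no filter (0.051).

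**Figure D3:**
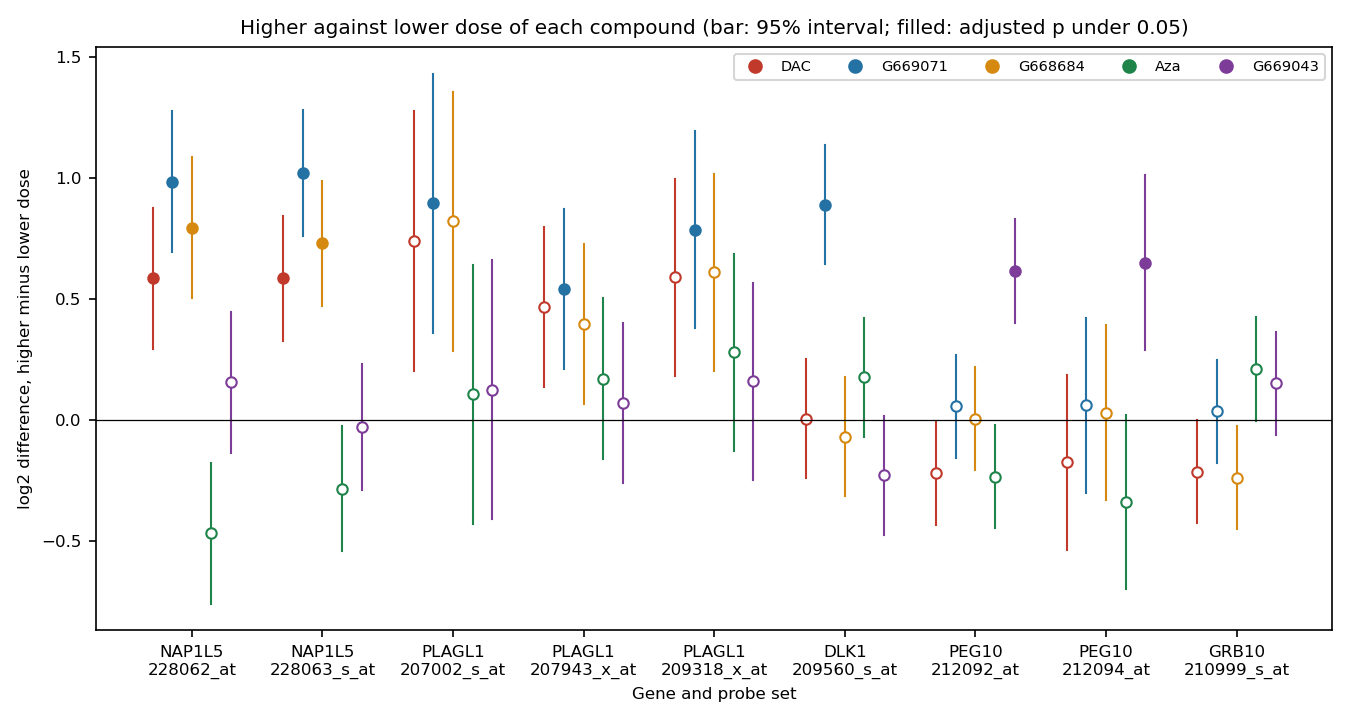
Log2 difference between the higher and the lower dose of each compound (vertical axis; points, filled where the adjusted p is under 0.05; bars, 95% intervals) for the NAP1L5, PLAGL1, DLK1, PEG10 and GRB10 probe sets shown on the horizontal axis. The NAP1L5 points of DAC, G669071 and G668684 are all filled and lie between 0.58 and 1.02, whereas the filled PEG10 points are those of G669043, at 0.62 and 0.65.

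DLK1 encodes a membrane protein related to Notch ligands that restrains adipocyte differentiation, and lies on chromosome 14 with the maternally expressed noncoding RNA MEG3, expressed from the opposite parental copy. On 209560_s_at the DMSO arrays read 6.84, 6.55, 6.69 and 6.75. G669071 read 7.53 and 7.77 at the higher dose, above every other array, and 6.71 and 6.81 at the lower, within the DMSO range. DAC read 7.33 and 7.16 at 5 µM and 7.28 and 7.20 at 120 nM, and G668684 read 7.06 and 7.05 at 7 µM and 7.13 and 7.12 at 150 nM.

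Against DMSO the higher dose of G669071 raised DLK1 by 0.94 ± 0.10 (adjusted p = 4.9e-07, limma), and its 2 doses differed by 0.89 (95% interval 0.64 to 1.14, adjusted p = 6.0e-05). DAC gave 0.54 (3.5e-04) at 5 µM and 0.53 (6.8e-04) at 120 nM, a difference of 0.01 between doses (−0.24 to 0.25). G668684 gave 0.35 (0.013) and 0.42 (0.0058). The first of these was lost without either treated array and in the fit of only the groups compared, and the second without G668684 150 nM replicate 1. DLK1 was not called with Aza or G669043, where differences ran from −0.11 to 0.12.

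The other DLK1 probe set, 235600_at, was called in none of the 10 comparisons with DMSO and lay from −0.22 to 0.01 relative to it. The 2 DLK1 probe sets therefore disagree. Since 209560_s_at reads about the middle of all probe sets tested, at percentile 44.8, and detection calls were not used here, whether DLK1 RNA is present cannot be told from its level.

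MEG3 had 8 probe sets that passed the filter and little change. Over 80 comparisons with DMSO 2 were called higher and 4 lower, none above 0.36 in size. The 2 higher calls were both of 235077_at, 0.30 with DAC at 120 nM (adjusted p = 0.019, limma) and 0.36 with the lower dose of G669071 (0.010). That probe set read 5.44, 5.49, 5.32 and 5.38 with DMSO, 5.78 and 5.64 with DAC at 120 nM and 5.88 and 5.65 with the lower dose of G669071. The lower calls were of 1558144_at (DAC at 5 µM, −0.32), 226211_at (DAC at 120 nM, −0.31) and 242246_x_at (DAC at 5 µM, −0.26, and G668684 at 150 nM, −0.30). All 6 calls were lost under 4 or more of the alternative settings, among them the fit of only the groups compared. The 95% interval for MEG3 reached, at the median, 0.20 to each side.

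GRB10, an adaptor protein that dampens insulin and IGF receptor signalling and is imprinted differently between tissues and isoforms, gave different answers by probe set. On 210999_s_at DMSO read 7.74, 7.95, 7.83 and 7.87. DAC read 8.31 and 8.39 at 5 µM and 8.73 and 8.40 at 120 nM, and G668684 read 8.23 and 8.35 at 7 µM and 8.58 and 8.48 at 150 nM. All these arrays lay above all DMSO arrays, as did G669071 at 8.39, 8.46, 8.36 and 8.42 and Aza at 1500 nM at 8.30 and 8.13. The arrays of G669043, which was not called, also lay above DMSO. They read 8.07 and 8.16 at 1500 nM and, only just above it, 7.96 and 7.97 at 150 nM.

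It was called higher in these 7 groups, from 0.37 ± 0.09 (Aza at 1500 nM, adjusted p = 0.0069, limma) to 0.72 (DAC at 120 nM, 5.3e-06). The Aza call was lost without Aza 1500 nM replicate 1 and in the fit of only the groups compared. Probe set 209410_s_at was called higher in 4 groups, by 0.28 to 0.38, and every one of those calls was lost in the fit of only the groups compared. By contrast 209409_at was called lower, by 0.26 with DAC at 5 µM (0.030) and by 0.24 with G668684 at 7 µM (0.037). Each of these calls was lost under 6 of 14 alternatives. Among them were median centring, the fit of only the groups compared, and leaving out DMSO replicate 3 or replicate 1 of the treated group. Probe set 215248_at was not called. Which GRB10 transcripts each probe set reads was not examined.

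**Figure D4:**
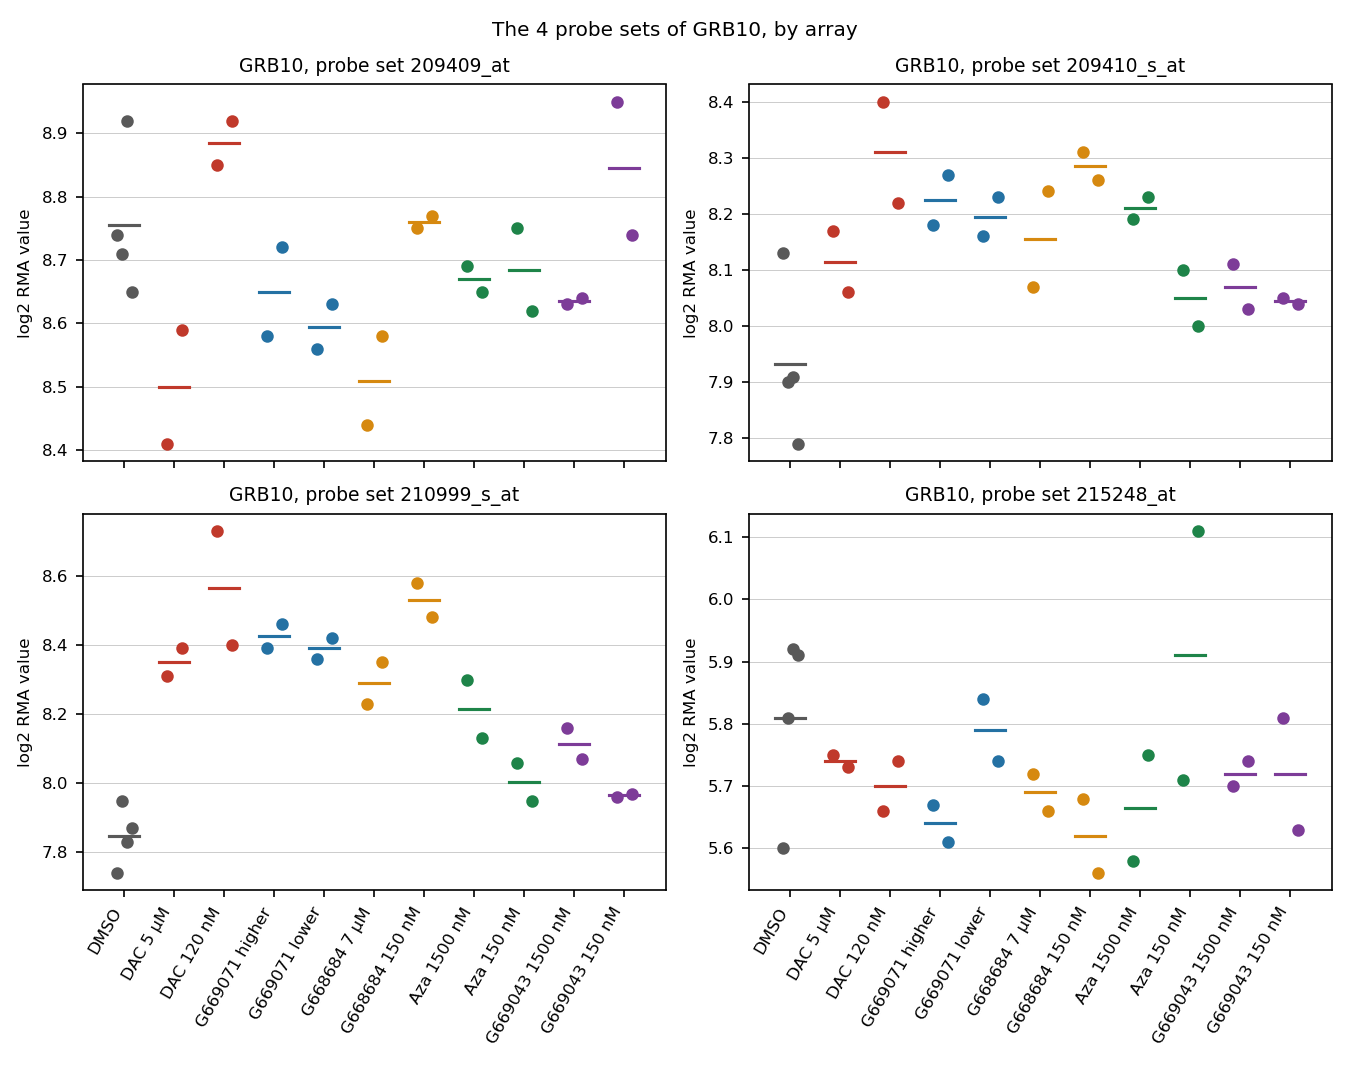
Log2 RMA value (vertical axes, each with its own range) on each array (points) and the group mean (line) for the 4 GRB10 probe sets in the 11 groups. For 210999_s_at the arrays of DAC, G669071 and G668684 lie at 8.23 or above, over all DMSO arrays, while 209409_at is lowest with DAC at 5 µM and G668684 at 7 µM.

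PHLDA2, a maternally expressed gene whose product limits placental growth, was bright on 209803_s_at, with DMSO at 12.25, 12.35, 12.66 and 12.38. The higher doses read 12.78 and 12.80 with DAC, 12.86 and 12.87 with G669071 and 12.79 and 12.73 with G668684, all above DMSO. The rises were small, at 0.38 (adjusted p = 0.017, limma), 0.46 (0.0051) and 0.35 (0.027). Against DMSO replicates 3 and 4 alone they were 0.27 (0.13), 0.34 (0.048) and 0.24 (0.18). Each also lost its call when single arrays were left out. This held for DAC without either treated array (0.086 and 0.11) and for G669071 without its replicate 2 (0.052). For G668684 it held without either treated array (0.17 and 0.092) or without DMSO replicate 1 or 2 (0.072 and 0.055). The other PHLDA2 probe sets had no call, and 229494_s_at passed the filter only narrowly, with a highest level of 5.26.

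MEST, a paternally expressed gene for a hydrolase-like protein, was steady at a high level, from 10.50 to 10.92 over all 24 arrays. Its single call was a rise of 0.23 with Aza at 1500 nM (adjusted p = 0.028, limma), where the arrays read 10.92 and 10.86. This was lost under 6 alternatives, among them each Aza array left out (0.21 and 0.10). Its 95% interval against DMSO reached, at the median, 0.14 to each side. PEG3, a paternally expressed zinc finger gene, read 4.53 to 5.30 on the probe set that passed, at percentile 2.34 of all probe sets tested, and was not called in any group. Its other probe set read 3.71 to 4.36.

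The doses of G669043 matched those of Aza, so the compounds can be set against each other directly, in 2 pairs. At 1500 nM 2 of the 26 probe sets differed, both higher with G669043, against 1.25% called in either direction among all probe sets tested, and at 150 nM limma called none, against 0.0341%, with 2 at an unadjusted p under 0.05. PEG10 on 212094_at read 9.93 and 10.23 with G669043 and 9.30 and 9.19 with Aza at 1500 nM, a difference of 0.83 (95% interval 0.47 to 1.20, adjusted p = 0.020, limma). On 212092_at the difference was 0.39 (0.17 to 0.60) and did not pass (0.072). NAP1L5 on 228062_at was 0.58 higher with G669043 (0.29 to 0.88, adjusted p = 0.042), with G669043 at a mean of 7.54, equal to DMSO, and Aza at 6.96.

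Leaving out 1 array weakened both. The NAP1L5 call was lost without any of the 4 arrays, with adjusted p from 0.084 to 0.49, and on 228063_s_at the difference was 0.36 (0.10 to 0.61, 0.18). The PEG10 call was lost without Aza 1500 nM replicate 1 (0.072), Aza 1500 nM replicate 2 (0.24) or G669043 1500 nM replicate 2 (0.39). At 150 nM PEG10 on 212092_at was 0.46 lower with G669043 (−0.68 to −0.25), with no overlap between the arrays, and did not pass (0.18). NAP1L5 differed by −0.04 at that dose, with an interval of −0.33 to 0.25 that still allows a moderate difference.

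For PEG10 the mean was higher at the higher dose of G669043 and at the lower dose of Aza. Between doses G669043 changed 212092_at by 0.62 (adjusted p = 0.0016) and Aza by −0.24 (0.24). A test of the difference of these dose effects, added after the values were seen, gave 0.85 (95% interval 0.55 to 1.15, adjusted p = 0.0072, limma), against 0.279% of all probe sets called. The call was lost without Aza 1500 nM replicate 2 (0.078), Aza 150 nM replicate 2 (0.056), G669043 1500 nM replicate 1 (0.052) or G669043 150 nM replicate 1 (0.061), with values from 0.73 to 0.96 over all arrays left out. On 212094_at the difference was 0.99 (0.48 to 1.5) and did not pass (0.12). For NAP1L5 on 228062_at it was 0.62 (0.21 to 1.04, 0.26).

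**Figure D5:**
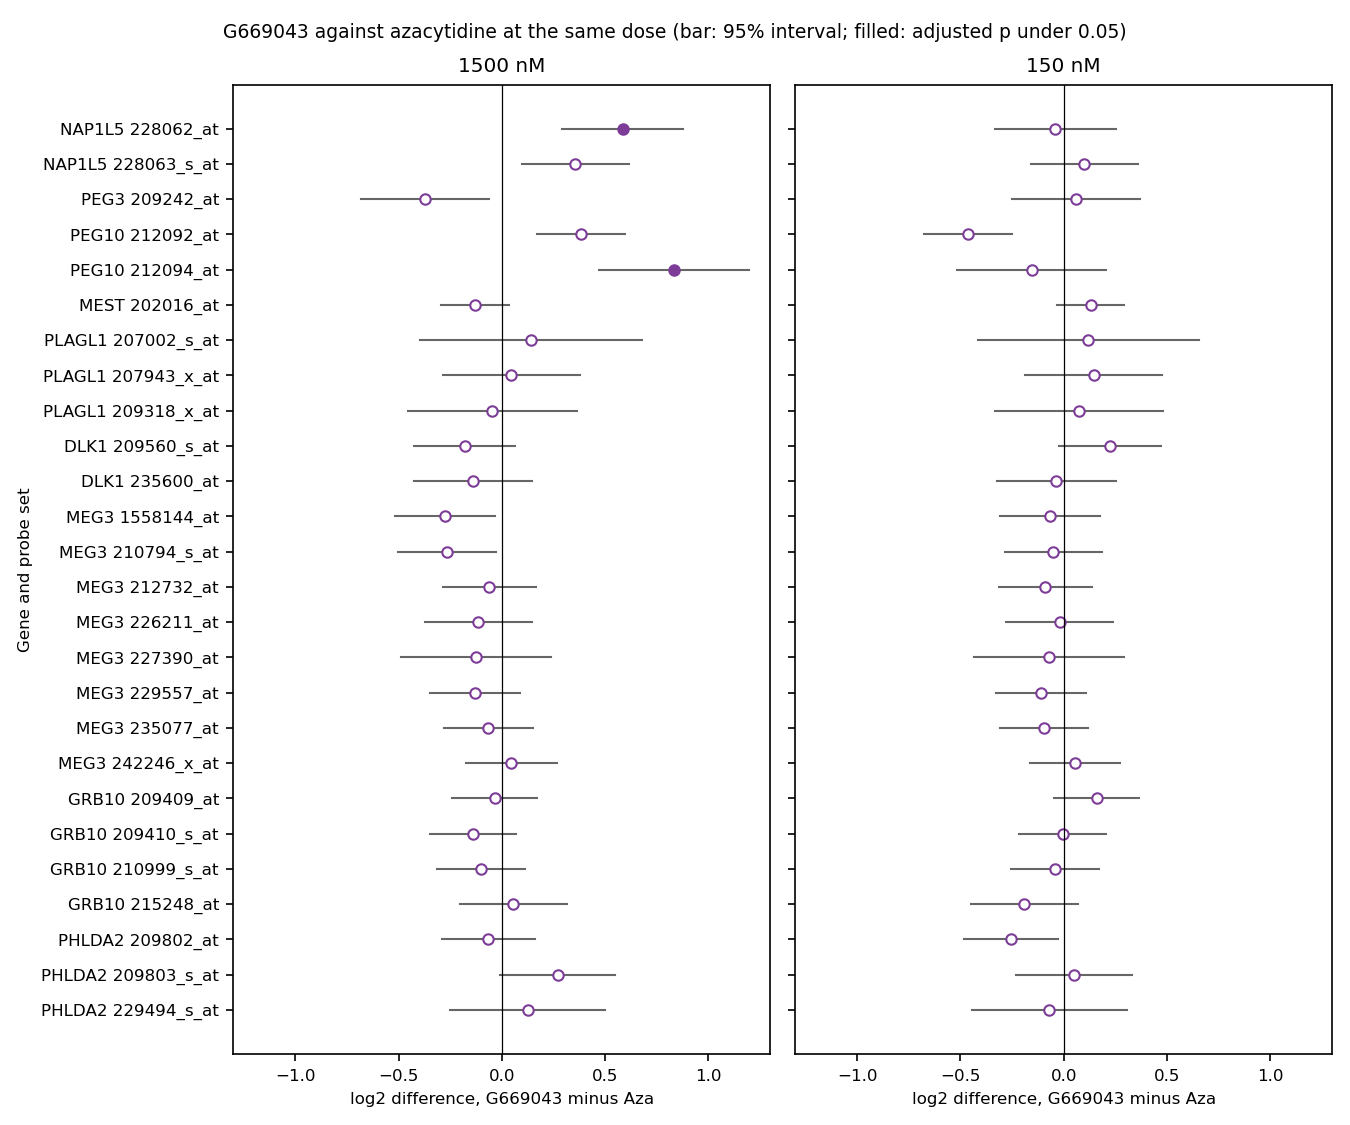
Log2 difference between G669043 and azacytidine (horizontal axes; points, filled where the adjusted p is under 0.05; bars, 95% intervals) at 1500 nM (left) and 150 nM (right) for the 26 probe sets. At 1500 nM the filled points are NAP1L5 228062_at and PEG10 212094_at, and at 150 nM no point is filled, with PEG10 212092_at the farthest below 0.

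Neighbouring genes of the same imprinted regions were read where they have a probe set of 1 symbol. SGCE, which shares a divergent promoter region with PEG10 and is likewise paternally expressed, did not rise with it. Its probe set 204688_at was called lower with DAC at 5 µM (−0.34, adjusted p = 0.0060, limma), G668684 at 7 µM (−0.26, 0.034) and Aza at 1500 nM (−0.32, 0.016), and was not called in the other 7 groups. HYMAI, a noncoding RNA at the PLAGL1 locus, and COPG2, which overlaps MEST, were not called in any group. HERC3, which contains NAP1L5, has no probe set of 1 symbol, nor have IGF2, ZIM2 and SLC22A18. CDKN1C, a maternally expressed cell cycle inhibitor in the same imprinted cluster as PHLDA2, rose on 4 of its 5 probe sets in all 6 groups of DAC, G669071 and G668684. On 213348_at the rise was 0.39, 0.52 and 0.31 at the higher doses and 1.01, 0.93 and 1.08 at the lower doses. That probe set was also called higher with G669043 at 1500 nM (0.61, 6.4e-06) and Aza at 150 nM (0.38, 0.0067), while 219533_at was called in no group.

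DDC, the enzyme that makes dopamine and serotonin from their precursors, lies beside GRB10 and has 2 probe sets. On 205311_at it was called higher with DAC at 5 µM (0.42, adjusted p = 0.0027, limma) and lower with the lower dose of G669071 (−0.36, 0.021), and in no other treated group against DMSO. Its higher minus lower dose was 0.68 for DAC, 0.45 for G669071 and 0.51 for G668684, each past the test. The other probe set, 214347_s_at, was called in none of the contrasts run.

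A wider list of 61 other genes known as imprinted had 46 genes with 103 probe sets tested. DAC at 5 µM raised 28 of these (27.2%, against 15.1% of all probe sets) and lowered 3 (2.91%, against 13.1%), and at 120 nM it raised 23 (22.3%, against 10.5%) and lowered 3 (2.91%, against 9.4%). At its higher dose G669071 raised 29 (28.2%, against 13.6%) and lowered 4 (3.88%, against 12.5%), and at its lower dose it raised 14 (13.6%, against 6.78%) and lowered 4 (3.88%, against 5.69%). G668684 at 7 µM raised 26 (25.2%, against 14.8%) and lowered 5 (4.85%, against 13.3%), and at 150 nM it raised 19 (18.4%, against 8.89%) and lowered 2 (1.94%, against 9.49%).

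Aza at 1500 nM raised 6 of the wider list (5.83%, against 6.09%) and lowered 4 (3.88%, against 8.21%), and at 150 nM it raised 2 (1.94%, against 0.666%). G669043 at 1500 nM raised 10 (9.71%, against 4.24%) and lowered 1 (0.971%, against 2.74%). At 150 nM limma called none with G669043, and 15 had an unadjusted p under 0.05. Counted in either direction, 30.1% of the list and 28.2% of all probe sets were called with DAC at 5 µM, with medians of 0.00 and −0.05, so the 2 shares were close while those by direction lay apart. The differences of shares were not tested, and this list too was chosen with earlier results of these data known.

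The largest rise in the wider list was that of TFPI2, a serine protease inhibitor, on 209278_s_at, with 3.49 ± 0.15 for the higher dose of G669071, 3.34 for G668684 at 7 µM and 3.28 for DAC at 5 µM. Aza at 1500 nM gave 0.87. FAM50B (205775_at), a paternally expressed retrogene like NAP1L5, rose by 1.38 with DAC at 5 µM and by 0.58 with Aza at 1500 nM. INPP5F (203607_at), a phosphoinositide phosphatase gene, rose by 1.23 (SE 0.10) with DAC at 5 µM and stood at −0.06 with Aza at 1500 nM. CPA4 (205832_at), a carboxypeptidase gene, rose with both drugs, by 1.18 and 1.27. For each of these genes only the probe set with the largest called difference is given. TFPI2 also has 209277_at, and INPP5F has 230362_at and 230363_s_at, and how those moved is not described here. Called lower with Aza at 1500 nM in the wider list were DIRAS3, GNAS, PON3 and SGCE, on 1 probe set each, so a fall with that drug was not limited to NAP1L5.

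Among genes outside the list, those whose 11 group means were most like NAP1L5 on 228062_at were RNF103 (r = 0.989), ANTXR2 (0.988), SEPHS2 (0.988), TAF7 (0.988) and GOLGA8N (0.985). These were picked as the highest of all genes, and the group means share their arrays. Within the imprinted genes the probe sets of a gene often disagreed in r over the same 11 means. It was 0.77 to 0.90 for the 3 PLAGL1 probe sets and 0.69 and 0.71 for PEG10. For DLK1 it was 0.81 on 209560_s_at and −0.40 on 235600_at, for PHLDA2 from −0.22 to 0.81, for GRB10 from −0.42 to 0.64 and for MEG3 from −0.72 to 0.28. MEST had −0.58 and PEG3 −0.02.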

How the data were processed

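Per the submitters' processing notes, RMA in Expression Console 1.1 gave the values that the authors deposited, linear intensity values for 24 arrays, whose log2 was taken here. No genome build was used for the probe sets. Probe sets with a single symbol that reached log2 5 on at least 2 arrays were kept (35146). limma 3.58.1 (R 4.3.3; lmFit, eBayes with a trend, 13 residual degrees of freedom) fitted group means over the 24 arrays together, and calls were made at a 2-sided Benjamini-Hochberg adjusted p under 0.05 over all probe sets kept, in 17 contrasts. Errors are SEs. The fit was tested on simulated data. The genes and lists were chosen with earlier results of these data known. The genes named were the members, the neighbours and the called genes of the wider list with the largest differences. Alternatives were other DMSO pairs, array scaling, filters, only the groups compared, a replicate block and each array left out. Python 3.11.15 with pandas 2.3.3 and matplotlib 3.10.9 made the tables and plots.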

Additional observations from a re-analysis of the deposited data

Results flagged for a closer look

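PEG10 on 212092_at was noted because the effect of dose differed between G669043 and Aza, by 0.85 on the log2 scale. PEG10 on 212094_at was noted because G669043 and Aza at 1500 nM differed by 0.83, and NAP1L5 on 228062_at because they differed by 0.58 at that dose. Each of these 3 calls was lost when single arrays were left out, with the arrays and adjusted p as given above: the first without any 1 of 4 arrays, the second without any 1 of 3 and the third without any 1 of 4. None of these contrasts uses a DMSO array. The 3′ minus 5′ signal of ACTB was highest, at 0.34, in G669043 1500 nM replicate 2, and its part in them was not tested.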

How the results depend on the processing

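Of 83 called values of single probe sets, 45 kept their call and direction under every alternative run, and over all 1095 refits of them 152 lost the call and 0 changed direction. The 45 include both NAP1L5 probe sets at the higher doses of DAC, G669071 and G668684, and PEG10 on 212092_at in the same groups and at their lower doses. A further 73 uncalled values were called under at least 1 alternative. Each count of called probe sets is given next where it moved by over 1.5 times, and the cause was not tested.

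Fitting only the groups compared gave 6 for DAC at 120 nM, 3 for G669071 at the lower dose, 0 for Aza at 1500 nM and 0 at 150 nM, 1 between the doses of DAC, 4 between those of G668684, 4 between those of Aza, 1 for G669043 against Aza at 150 nM and 3 for the difference of their dose effects. DMSO replicates 1 and 2 alone gave 2 for Aza at 150 nM, 5 for G669043 at 1500 nM and 5 at 150 nM, and DMSO replicates 3 and 4 alone gave 2 for Aza at 150 nM. Quantile normalization gave 7, 6 and 1 between the doses of DAC, G668684 and Aza and 2 for the difference of dose effects. Median centring gave 1 between the doses of G669043 and 1 for G669043 against Aza at 1500 nM, and no filter gave 1 between the doses of G669043. The stricter filter moved none of the counts by that much.

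The replicate numbers showed no steady pairing of the arrays. Over 55 pairs of groups the correlation of same-numbered deviations ran from −0.378 to 0.596, with 18 over 0.1 and 14 under −0.1. Whether some groups share a batch that the numbers do not follow was not tested. With the replicate block the counts were 2 for Aza at 150 nM and 6 and 5 for G669043 at 1500 and 150 nM. Between the doses of DAC, G668684 and Aza the block gave 8, 5 and 1. It gave 4 for G669043 against Aza at 1500 nM and 2 for the difference of dose effects. The replicate numbers of the second DMSO pair occur in no treated group, so the block fits those arrays apart. Against DMSO this setting is therefore close to the first DMSO pair alone and is not a separate check.

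Leaving out 1 array in turn gave 10 to 13 for DAC at 5 µM, 9 to 10 at 120 nM, 8 to 12 for G669071 at the higher dose and 3 to 7 at the lower (3 without its replicate 1). It gave 7 to 12 for G668684 at 7 µM (7 without replicate 1) and 5 to 9 at 150 nM (5 without replicate 1). It gave 1 to 5 for Aza at 1500 nM (2 without replicate 1, 1 without replicate 2), 0 to 1 at 150 nM (0 without either treated array) and 2 to 3 for G669043 at 1500 nM. Between doses it gave 1 to 8 for DAC (1 without DAC 120 nM replicate 1 or DAC 5 µM replicate 2, 2 without DAC 5 µM replicate 1, 8 without DAC 120 nM replicate 2), 3 for G669071 and 1 for G669043, in both without any of the 4 arrays. G669043 against Aza at 1500 nM gave 0 to 1, with 1 without G669043 replicate 1 and 0 without each of the other arrays. The difference of dose effects gave 0 to 1, with 0 without Aza 1500 nM replicate 2, Aza 150 nM replicate 2, G669043 1500 nM replicate 1 or G669043 150 nM replicate 1. Detection calls were not used here, so signal over background was not assessed.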
